A study of Mus musculus with 6 samples.

Results

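The BCL2 family decides, at the outer membrane of the mitochondrion, whether a cell under stress survives or dies. Guardian proteins (Bcl2, Bcl2l1, Mcl1 and Bcl2a1b) hold the effectors Bax and Bak1 in check, and the effectors, once set free, open pores that release cytochrome c and start the caspase cascade. BH3-only proteins (Bcl2l11, Bid, Bbc3 and Pmaip1) carry the death signal by inserting a short helix, the BH3 helix, into a groove of the guardians or by activating the effectors. In macrophages this balance sets how long an activated cell lives, and several guardians are known targets of NF-κB, the transcription factor that lipopolysaccharide (LPS) switches on.

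These 10 genes were taken by their gene symbols from the 52550 genes of the deposited table, and each symbol matched 1 row. All 10 passed the filter on low counts, as did 16287 genes in all. The comparison asks how loss of GIT1, a scaffold protein that binds G protein-coupled receptor kinases, goes with the transcript levels of these genes in inflamed macrophages.

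The mRNA of bone marrow-derived macrophages (BMDMs) of C57BL/6 mice was sequenced. There were 3 GIT1 CKO libraries, from mice with floxed Git1 and a Lyz2-Cre transgene, which deletes in cells of the myeloid lineage. The controls were 3 GIT1 fl/fl libraries (named CWT in the labels), which carried the floxed gene without Cre. All 6 libraries were from cells grown for 7 days in 25 ng/mL M-CSF, the growth factor that turns bone marrow cells into macrophages, and then given 100 ng/mL LPS, so no value describes resting cells.

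The libraries held 61895190 to 157485640 counts in total, and the 3 GIT1 CKO libraries were the deepest, from 81131281 counts up. Git1 itself had 72.8, 74.5 and 73.8 CPM (counts of a gene relative to its library's total) in GIT1 CKO libraries, against 71.9, 103.4 and 82.2 CPM in GIT1 fl/fl libraries. Its log2 fold change of -0.22 was not called (edgeR adjusted p = 0.448), so gene-level counts did not check the deletion. Xist had 1047 to 1135 CPM in GIT1 CKO libraries against 223.2 to 590.3 CPM in GIT1 fl/fl libraries, and 4 Y-linked genes summed to 0 to 0.0254 CPM against 26.1 to 79.3 CPM, so donor sex and genotype cannot be told apart. All 8 macrophage markers were measured, with summed levels of 30310 to 30990 CPM in GIT1 CKO libraries and 44090 to 53410 CPM in GIT1 fl/fl libraries. Their only called member was Lyz2, the gene whose promoter drives Cre (log2 fold change -1.14, edgeR adjusted p = 0.0153). Lyz2 alone had 15720 to 16770 CPM in GIT1 CKO libraries and 30900 to 38980 CPM in GIT1 fl/fl libraries. The lower sum of the macrophage markers thus lay largely in this gene. Endothelial markers, 3 of 4 tested, summed to 20.9 to 23.5 CPM against 10.8 to 11.6 CPM in GIT1 fl/fl libraries, and Pecam1 was called. Neutrophil markers summed to 2.26 to 2.92 CPM against 2.64 to 4.08 CPM, with Ly6g and Camp at 0, the T and NK cell marker Cd3g was at 0 in every library, and B cell markers, 4 of 7 tested, summed to 18.2 to 21 CPM against 13.1 to 16.0 CPM. Fibroblast markers, 5 of 6 tested, summed to 34.4 to 39.5 CPM against 27.5 to 36.9 CPM, and the mast cell markers Fcer1a and Tpsb2 were at 0. The part of these differences in the results was not tested, and in such bulk samples fewer cells of a type and less RNA per cell cannot be told apart.

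The helix shared by the family is shown first, because it is the part through which the death genes meet the guardians. Its core was searched in the longest coding sequence of each gene (GENCODE M21 transcripts, GRCm38) as leucine, any 3 residues, glycine or alanine, and aspartate. The capitals mark the leucine codon and the codons of the small residue and the aspartate.
Bcl2: CTCcgccgggctGGGGAT
Bcl2l1: CTGagagaggcaGGCGAT
Mcl1: CTGcggcgcgtgGGCGAC
Bax: CTCcggcgaattGGAGAT
Bak1: CTTgctctcatcGGAGAT
Bcl2l11: CTGcggcggatcGGAGAC
Bid: CTCgcccaaataGGCGAT
Bbc3: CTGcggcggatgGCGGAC
The core lay at residues 94 to 99 of 236 in Bcl2, 90 to 95 of 233 in Bcl2l1 and 194 to 199 of 331 in Mcl1. In the effectors it lay at residues 63 to 68 of 192 (Bax) and 76 to 81 of 209 (Bak1). In the BH3-only genes it lay at residues 150 to 155 of 196 (Bcl2l11), 90 to 95 of 195 (Bid) and 141 to 146 of 193 (Bbc3), and Pmaip1 held 2 matches in 103 residues. Bbc3 was the only one of the 8 printed genes with alanine in place of glycine before the aspartate. Bcl2a1b, with 172 residues, held no match to these letters. The pattern is a loose one, since 5145 of 21484 coding genes (23.9%) held it, and it was present in 9 of the 10 genes.

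All 10 genes were measured well above the floor of 3 counts, but at very different levels. To set genes side by side, CPM were divided by the exonic length of the gene in kilobases. Mcl1, a short-lived guardian on which many blood cells depend, was the most abundant, with 259.1 ± 4.03 CPM per kilobase in GIT1 CKO cells and 200.1 ± 56.7 in GIT1 fl/fl cells (SD, n = 3 each). Bcl2a1b, an NF-κB-driven guardian of white blood cells, followed with 181.0 ± 8.59 CPM per kilobase against 174.0 ± 73.0 in GIT1 fl/fl cells. The libraries of Mcl1 and Bcl2a1b did not overlap in GIT1 CKO cells but did in GIT1 fl/fl cells.

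The effectors came next, Bax with 40.9 ± 5.13 CPM per kilobase in GIT1 CKO cells and 47.9 ± 7.65 in GIT1 fl/fl cells, and Bak1 with 29.4 ± 3.62 against 33.6 ± 5.97. Of the BH3-only genes, Bbc3 had 18.9 ± 1.17 CPM per kilobase against 24.9 ± 5.99 in GIT1 fl/fl cells and Bid 10.4 ± 3.53 against 11.6 ± 1.10. Bcl2l1, which encodes the guardian BCL-XL, had, over all its splice forms, 8.15 ± 1.35 CPM per kilobase in GIT1 CKO cells and 5.59 ± 0.973 in GIT1 fl/fl cells. It ranked 7 of 10 in GIT1 CKO cells and 8 in GIT1 fl/fl cells, trading places with Bcl2l11 (7.18 ± 0.894 against 8.28 ± 1.24 in GIT1 fl/fl cells). Pmaip1 had 5.62 ± 0.210 CPM per kilobase against 4.71 ± 1.51. Bcl2, the founding member of the family, ranked last in both groups with 0.323 ± 0.0218 CPM per kilobase against 0.171 ± 0.0270 in GIT1 fl/fl cells. Neighbours in this order that overlapped over the libraries were Bid, Bcl2l1 and Bcl2l11 in GIT1 CKO cells. In GIT1 fl/fl cells they were Mcl1 with Bcl2a1b, Bax with Bak1, Bak1 with Bbc3, and Bcl2l1 with Pmaip1. The length used for Pmaip1 is that of a GENCODE M21 model whose ends differ from those in the deposited table.

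**Figure D1:**
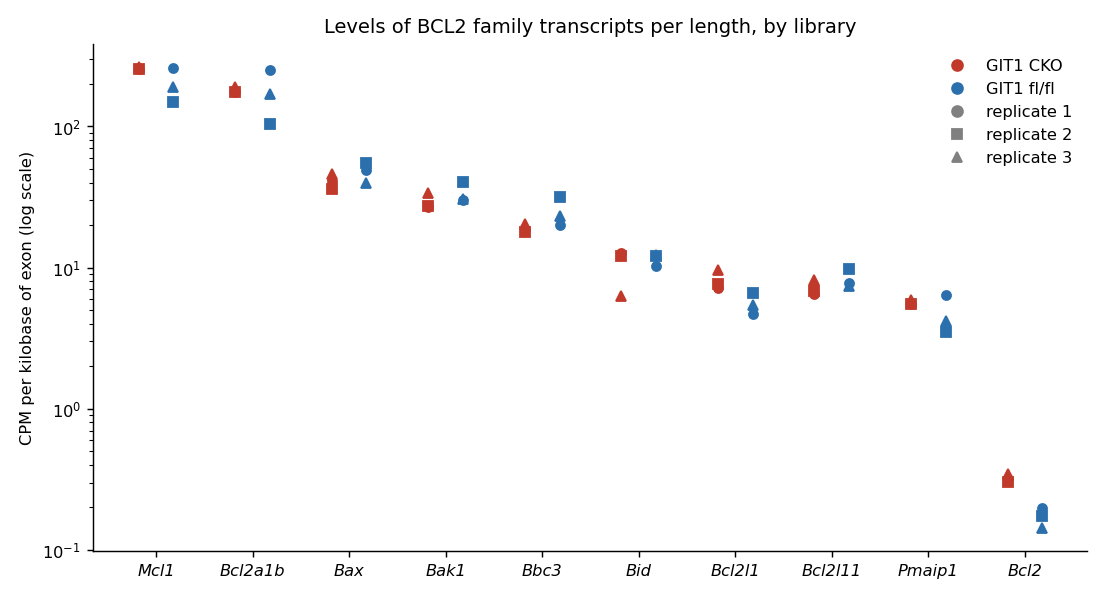
Level of each gene (vertical axis, CPM per kilobase of exon, log scale) in the GIT1 CKO libraries (red, left) and GIT1 fl/fl libraries (blue, right), with the marker shape giving the replicate. Mcl1 and Bcl2a1b lie between 103.6 and 263.8 CPM per kilobase, while Bcl2 lies between 0.143 and 0.347.

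Among the guardians, Mcl1 made up 57.8% ± 0.899 of the summed level per length in GIT1 CKO cells and 53.4% ± 3.50 in GIT1 fl/fl cells (SD, n = 3 each). Bcl2a1b made up 40.3% ± 0.656 against 44.9% ± 4.35 in GIT1 fl/fl cells. Bcl2l1 and Bcl2 added 1.81% ± 0.241 and 0.0720% ± 0.00290 in GIT1 CKO cells, against 1.65% ± 0.839 and 0.0480% ± 0.0161 in GIT1 fl/fl cells. The shares of all 4 overlapped between the groups except that of Bcl2, whose lowest GIT1 CKO share (0.0689%) was above the highest GIT1 fl/fl share (0.0666%). The summed level of these 4 guardians was thus almost all Mcl1 and Bcl2a1b in every library. Other guardian genes were not part of this sum.

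At these levels, no gene of the family was called between the genotypes. In edgeR's quasi-likelihood test, with Benjamini-Hochberg adjustment over 16287 genes and a limit of 0.05, 0 of the 10 passed, where 0.755% of all genes tested did. At an unadjusted p under 0.05, 2 of the 10 passed, Bcl2 and Bcl2l1, where 17.5% of all genes did. The rule of the study, which asks for more than 1.5-fold and an unadjusted p under 0.05, was met by 1 gene, Bcl2, as a higher value in GIT1 CKO cells, where 6.48% of all genes were. All GIT1 CKO libraries lay above all GIT1 fl/fl libraries in 2 of the 10, against 13.6% of all genes tested. They lay below in 0 of the 10, against 15.1% of all genes. The median log2 fold change of the 10 was -0.05, beside 0.01 for all genes tested. DESeq2 called 1 of the 10 (5.1% of all genes it tested) and limma-voom called 0 (0.896% of all).

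**Figure D2:**
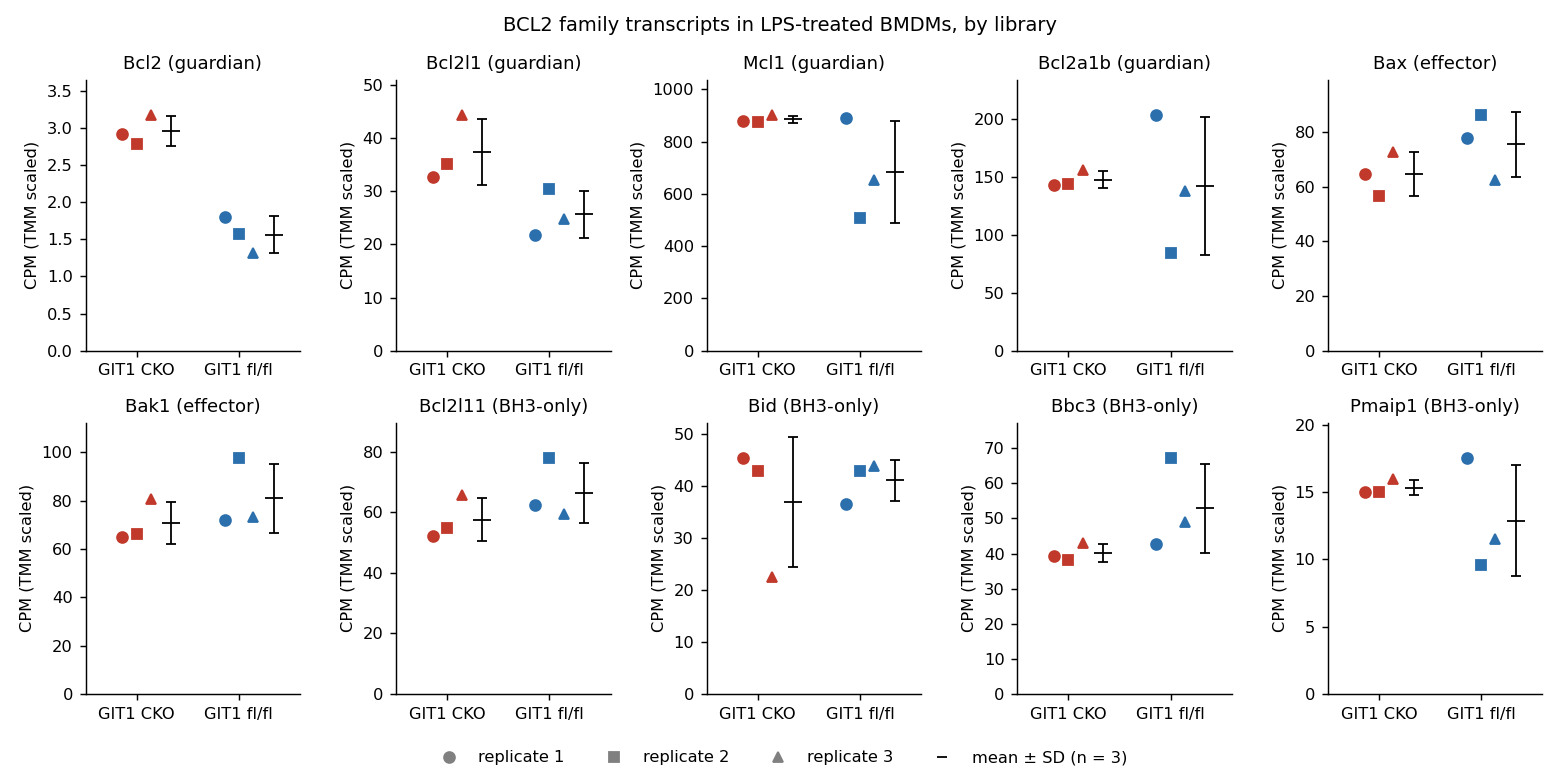
CPM of each gene (vertical axes, TMM-scaled, each from 0) in the 3 GIT1 CKO libraries (red, left) and the 3 GIT1 fl/fl libraries (blue, right), with black bars for the mean ± SD. The groups do not overlap for Bcl2 and Bcl2l1, and GIT1 fl/fl replicate 2 has the lowest value of all libraries for Mcl1, Bcl2a1b and Pmaip1.

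Bcl2 encodes the guardian first found at a lymphoma breakpoint. Its gene lies on the minus strand of GRCm38 at chr1:106538178-106714274. It was counted 384, 448 and 255 times in GIT1 CKO libraries, against 113, 106 and 81 times in GIT1 fl/fl libraries. Scaled to library size, that was 2.92, 2.78 and 3.18 CPM in GIT1 CKO libraries and 1.81, 1.58 and 1.31 CPM in GIT1 fl/fl libraries. Every GIT1 CKO library was higher than every GIT1 fl/fl library, and the gap between the groups was wider than the spread within either. The means were 2.96 ± 0.200 CPM in GIT1 CKO cells and 1.57 ± 0.247 CPM in GIT1 fl/fl cells (SD, n = 3 each), a 1.89-fold difference (95% interval 1.37 to 2.61). The log2 fold change of 0.92 (SE 0.19) had an edgeR p of 0.00248 and an adjusted p of 0.108. DESeq2 called it, with a log2 fold change of 0.92 and an adjusted p of 0.00737. Of the fits that left out 1 library, edgeR called it only in that lacking GIT1 fl/fl replicate 1 (log2 fold change 1.03, adjusted p = 0.0434). Exons of the antisense gene D630008O14Rik share 558 bases with those of Bcl2. This antisense gene had 40, 44 and 15 counts in GIT1 CKO libraries, against 12, 8 and 4 counts in GIT1 fl/fl libraries. Its part in the counts of Bcl2 was not tested.

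Bcl2l1 keeps mature cells alive through its long product BCL-XL and lies at chr2:152780668-152831728 on the minus strand. It had 32.6, 35.1 and 44.4 CPM in GIT1 CKO libraries, against 21.7, 30.5 and 24.8 CPM in GIT1 fl/fl libraries. The groups did not overlap, but the highest GIT1 fl/fl library came within a few CPM of the lowest GIT1 CKO library. The means of 37.4 ± 6.18 CPM in GIT1 CKO cells and 25.7 ± 4.46 CPM in GIT1 fl/fl cells (SD, n = 3 each) gave a log2 fold change of 0.54 (SE 0.18) and an edgeR adjusted p of 0.207. Its unadjusted p was 0.0187 in edgeR, and the 1.46-fold difference was short of the 1.5-fold limit of the study. The counts do not separate the long product from the shorter, death-promoting splice form of the same gene.

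Mcl1 lies at chr3:95658788-95663176 on the plus strand. It had 879.2, 876.5 and 901.6 CPM in GIT1 CKO libraries, against 890.9, 507.2 and 653.6 CPM in GIT1 fl/fl libraries. The GIT1 CKO libraries differed from each other by a coefficient of variation of 1.56%, against 28.3% in the GIT1 fl/fl libraries. GIT1 fl/fl replicate 1 sat inside the GIT1 CKO range, while the other GIT1 fl/fl libraries were below it. The log2 fold change was 0.37 (SE 0.20, 95% interval -0.10 to 0.85, edgeR adjusted p = 0.368). Without GIT1 fl/fl replicate 1 it was 0.61 and was called (adjusted p = 0.0467), whereas it was 0.22 without GIT1 fl/fl replicate 2. For Mcl1, then, the size of the difference rested on which GIT1 fl/fl library was counted.

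Bcl2a1b lies at chr9:89199209-89207827 on the plus strand. It had 143.2, 144.5 and 156.0 CPM in GIT1 CKO libraries, against 203.7, 84.6 and 138.1 CPM in GIT1 fl/fl libraries. The GIT1 fl/fl libraries lay on both sides of the GIT1 CKO libraries, with coefficients of variation of 4.75% in GIT1 CKO cells and 42.0% in GIT1 fl/fl cells. The log2 fold change was 0.06 (SE 0.29, 95% interval -0.64 to 0.76, edgeR adjusted p = 0.927), and it turned to -0.18 without GIT1 fl/fl replicate 2. The interval still allows a difference of over 1.5-fold in either direction.

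Bcl2a1b has near-identical copies on the same chromosome, and reads from them may be counted under any copy. The first 60 coding bases of the 3 full-length copies are given because they hold 6 of the 12 positions that tell the copies apart. The capitals mark the positions at which the copies differ (GENCODE M21, GRCm38, chromosome 9).
Bcl2a1a: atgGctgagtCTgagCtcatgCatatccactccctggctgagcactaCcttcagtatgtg
Bcl2a1b: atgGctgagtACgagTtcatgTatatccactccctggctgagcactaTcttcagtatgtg
Bcl2a1d: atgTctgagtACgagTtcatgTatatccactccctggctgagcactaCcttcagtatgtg
Over 519 coding bases, Bcl2a1b differed from Bcl2a1a at 11 bases (97.9% identity) and from Bcl2a1d at 6 bases (98.8% identity). It shared an unbroken stretch of 217 bases with each. Of the counts of the Bcl2a1 genes, 90.9% to 96.1% were assigned to Bcl2a1b.

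Bcl2a1a had 6.84, 6.53 and 5.59 CPM in GIT1 CKO libraries, against 8.05, 0.983 and 3.37 CPM in GIT1 fl/fl libraries. Bcl2a1d had 7.49, 7.33 and 5.60 CPM against 2.43 to 5.30 CPM in GIT1 fl/fl libraries, with no overlap between the groups, a log2 fold change of 0.88 (SE 0.30) and an edgeR adjusted p of 0.221. All 3 copies were lowest in GIT1 fl/fl replicate 2. With the counts of the copies summed, the values were 157.5, 158.4 and 167.2 CPM in GIT1 CKO libraries and 217.1, 88.0 and 144.9 CPM in GIT1 fl/fl libraries. For the sum, the log2 fold change was 0.10 (SE 0.30, edgeR adjusted p = 0.868), and the groups overlapped. The neighbouring model Gm29094, on the same strand, shares 401 exonic bases with Bcl2a1b and had 105 to 442 counts.

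The effectors were not called, and the groups overlapped for both. Bax, which moves from the cytosol to the mitochondrion when it is activated, lies at chr7:45461697-45466898 on the minus strand. It had 64.5, 56.4 and 72.6 CPM in GIT1 CKO libraries, against 77.7, 86.2 and 62.4 CPM in GIT1 fl/fl libraries. For Bax the log2 fold change was -0.23 (SE 0.16, 95% interval -0.60 to 0.15, edgeR adjusted p = 0.468). Bak1, which sits in the outer membrane at all times, lies at chr17:27019810-27029009 on the minus strand. It had 65.1, 66.1 and 80.7 CPM in GIT1 CKO libraries, against 72.2, 97.6 and 73.2 CPM in GIT1 fl/fl libraries, a log2 fold change of -0.20 (SE 0.16, 95% interval -0.58 to 0.18, edgeR adjusted p = 0.525). Both genes were highest of all libraries in GIT1 fl/fl replicate 2, and without it their log2 fold changes were -0.09 (Bax) and -0.02 (Bak1). Bak1 shares 437 exonic bases with Ggnbp1 on the other strand, which had 73 to 249 counts, and Bax shares 192 with Gm45808, which had 0 to 33.

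The BH3-only genes carry the death signal, and none of the 4 was called. Bcl2l11 encodes BIM, which ends immune responses and answers to loss of growth factors, and lies at chr2:128126038-128162547 on the plus strand. It had 52.2, 55.0 and 65.8 CPM in GIT1 CKO libraries, against 62.3, 77.9 and 59.4 CPM in GIT1 fl/fl libraries. The groups overlapped, and the log2 fold change was -0.21 (SE 0.15, 95% interval -0.56 to 0.15, edgeR adjusted p = 0.483). It was -0.05 without GIT1 fl/fl replicate 2, whose value was the highest.

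Bbc3 encodes PUMA, a p53 target that binds every guardian, and lies at chr7:16308393-16318205 on the plus strand. It had 39.2, 38.2 and 42.9 CPM in GIT1 CKO libraries, against 42.6, 67.1 and 49.0 CPM in GIT1 fl/fl libraries. The only overlap was between GIT1 CKO replicate 3 and GIT1 fl/fl replicate 1. The means were 40.1 ± 2.49 CPM in GIT1 CKO cells and 52.9 ± 12.7 CPM in GIT1 fl/fl cells (SD, n = 3 each), and the log2 fold change was -0.40 (SE 0.18, 95% interval -0.83 to 0.03, edgeR adjusted p = 0.304). That was the lowest value among the 10 genes, and it shrank to -0.17 without GIT1 fl/fl replicate 2.

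Pmaip1 encodes NOXA, which binds MCL1 and hastens its breakdown, and lies on the plus strand of chromosome 18. It had 15.0, 15.0 and 16.0 CPM in GIT1 CKO libraries, against 17.5, 9.60 and 11.5 CPM in GIT1 fl/fl libraries. The GIT1 fl/fl libraries again lay on both sides, and the log2 fold change was 0.25 (SE 0.22, 95% interval -0.28 to 0.79, edgeR adjusted p = 0.562). Relative to its partner Mcl1, Pmaip1 varied little between libraries in the uncorrected counts. The ratio of Pmaip1 to Mcl1, both per length, was 0.0214, 0.0214 and 0.0222 in GIT1 CKO libraries and 0.0246, 0.0237 and 0.0220 in GIT1 fl/fl libraries. As a log2 difference, Pmaip1 over Mcl1 was -0.12 in the fit of all libraries and -0.46 with each library's GC trend removed (described below). This ratio was named after its values were seen. Bcl2a1b, Mcl1 and Pmaip1 shared the same order of the GIT1 fl/fl libraries, with replicate 1 highest and replicate 2 lowest.

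Bid, which caspase-8 cuts to link death receptors to the mitochondrion, lies at chr6:120891930-120916853 on the minus strand. It had 45.3, 42.9 and 22.5 CPM in GIT1 CKO libraries, against 36.6, 42.9 and 43.8 CPM in GIT1 fl/fl libraries. GIT1 CKO replicate 3 stood apart, at 61.5% of the next lowest library, and the other 5 libraries were close to each other. The log2 fold change was -0.15 with all libraries (SE 0.26, 95% interval -0.79 to 0.48, edgeR adjusted p = 0.768) and 0.10 without GIT1 CKO replicate 3. The genes of Bid and Bcl2l13 overlap on opposite strands by 628 exonic bases. Bcl2l13 had 33.4, 35.0 and 31.6 CPM in GIT1 CKO libraries, against 35.6, 37.0 and 37.6 CPM in GIT1 fl/fl libraries, so its value in GIT1 CKO replicate 3 was close to those of the other libraries. The deposited counts are not stated to use strand.

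GIT1 fl/fl replicate 2 was the extreme library for many of these genes, and its direction ran with their base composition. On the log2 scale of CPM, replicate 2 minus the mean of GIT1 fl/fl replicates 1 and 3 was -0.99 for Bcl2a1b (GC content of the longest transcript 44.1%), -0.59 for Mcl1 (48.7%) and -0.56 for Pmaip1 (42.1%). It was 0.55 for Bbc3 (65.2%), 0.42 for Bak1 (57.1%), 0.39 for Bcl2l1 (55.9%) and 0.31 for Bax (63.5%). Bcl2l11 (48.0%) had 0.36, Bid (51.3%) 0.10 and Bcl2 (46.3%) 0.04. Spearman's rho between GC content and this difference was 0.78 across the 10 genes and 0.64 across 16253 genes tested with a known GC content, all from the same 3 libraries. These are correlations across genes, which are not independent replicates.

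**Figure D3:**
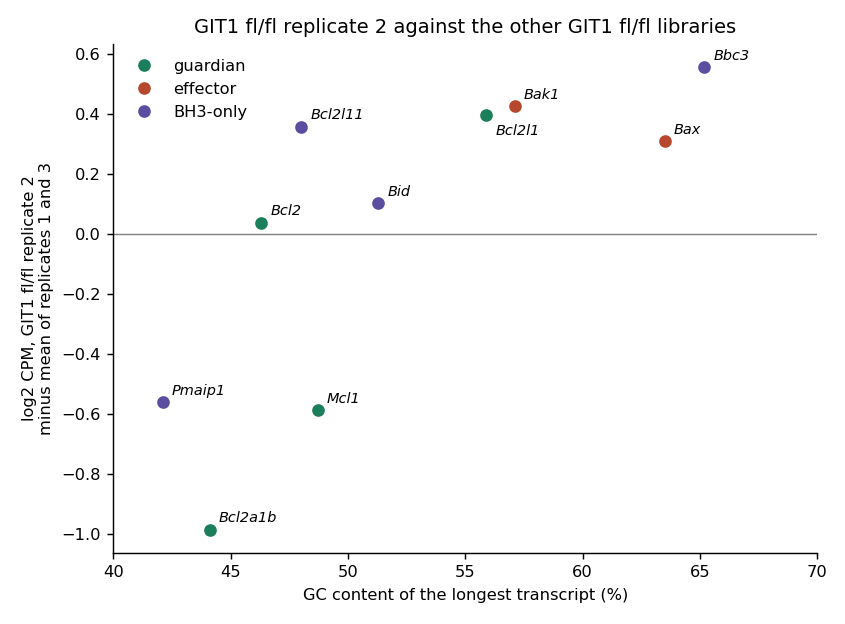
GC content of the longest transcript (horizontal axis, percent) against the log2 CPM of GIT1 fl/fl replicate 2 minus the mean of GIT1 fl/fl replicates 1 and 3 (vertical axis), 1 point per gene, coloured by role. Genes over 55% GC lie between 0.31 and 0.55, and Bcl2a1b at 44.1% GC lies at -0.99.

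After each library's GC trend was removed, the guardians Bcl2 and Bcl2l1 stayed higher in GIT1 CKO cells and 5 of the 6 death genes came closer to 0. Bcl2l1 was then called, with a log2 fold change of 0.69 (SE 0.13, edgeR adjusted p = 0.0374), where 4.96% of all genes tested were called in that fit. Bcl2 had 0.81 (SE 0.18, edgeR adjusted p = 0.0629). Bax had -0.05, Bak1 -0.04 and Bid -0.08, and Bbc3 had -0.19 (SE 0.07, edgeR adjusted p = 0.183). Bcl2l11 was the exception, with -0.24 in place of -0.21. Pmaip1 had -0.08 in place of 0.25 and Bcl2a1b -0.11 in place of 0.06, while Mcl1 had 0.38 in place of 0.37. Without GIT1 fl/fl replicate 2, Bcl2l1 had 0.71 (edgeR adjusted p = 0.0901) and Bcl2 0.95 (edgeR adjusted p = 0.0963).

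**Figure D4:**
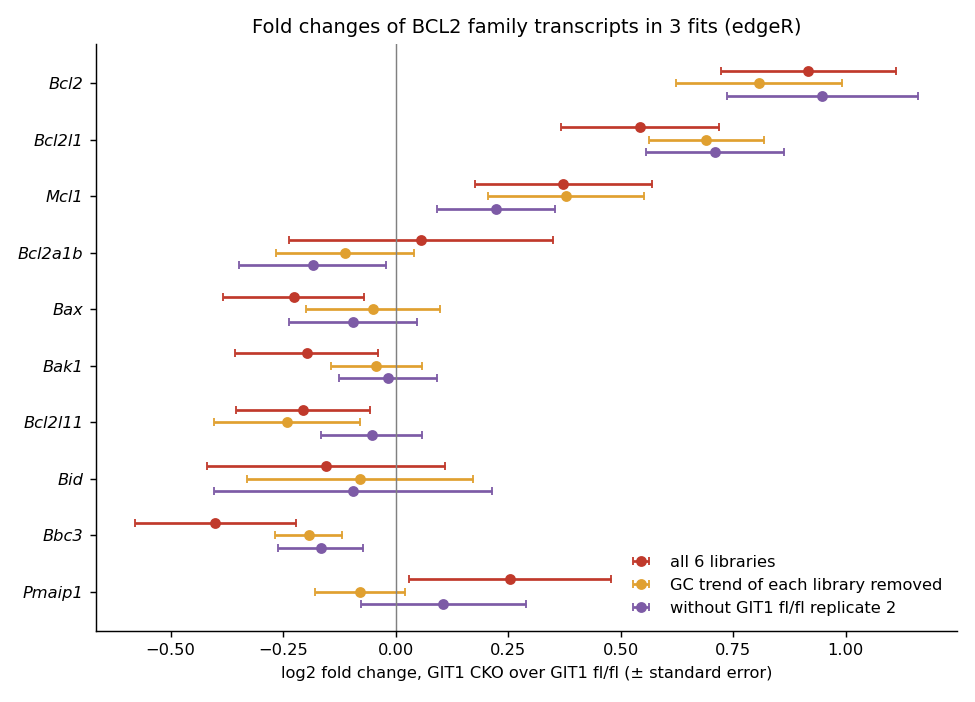
Log2 fold change, GIT1 CKO over GIT1 fl/fl (horizontal axis, with bars for ± 1 SE), of each gene with all 6 libraries (red), after removal of the GC trend (orange) and without GIT1 fl/fl replicate 2 (purple). Bcl2 and Bcl2l1 lie between 0.54 and 0.95 in all 3 fits, and the other 8 genes lie between -0.40 and 0.38.

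Whether a cell dies depends on the balance of death genes and guardians, so each of the 6 death genes was set against each of the 4 guardians as a ratio of levels per length within a library. Such ratios do not depend on how libraries are scaled. They were chosen after the values above were seen, share genes with each other, and are given with no test. Of the 24 ratios, 13 were lower in every GIT1 CKO library than in every GIT1 fl/fl library and 0 were higher in every one. The 13 were all 6 ratios over Bcl2, 5 of 6 over Bcl2l1, 2 of 6 over Mcl1 and 0 of 6 over Bcl2a1b. Thus 11 of the 13 had as denominator Bcl2 or Bcl2l1, whose own levels did not overlap between the groups, so these 11 largely restate the difference in those genes. Over the abundant guardians Mcl1 and Bcl2a1b it was 2 of 12. The share of such ratios over other pairs of genes was not computed.

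Bax over Bcl2 was 128.6, 117.8 and 132.8 in GIT1 CKO libraries, against 250.2, 317.3 and 276.5 in GIT1 fl/fl libraries. The ratio was more than 100 in every library, Bcl2 being the rarest of the 10 transcripts. Bcl2l11 over Bcl2l1 was 0.914, 0.895 and 0.847 in GIT1 CKO libraries, against 1.64, 1.46 and 1.37 in GIT1 fl/fl libraries. Per length, Bcl2l11 was thus below Bcl2l1, counted over all its splice forms, in every GIT1 CKO library and above it in every GIT1 fl/fl library. That order rests on the exonic lengths used, 8029 bases for Bcl2l11 and 4586 for Bcl2l1. In CPM not divided by length, Bcl2l11 was above Bcl2l1 in every library of both groups. Bbc3 over Bcl2l1 was 2.60, 2.35 and 2.09 against 4.24, 4.76 and 4.28 in GIT1 fl/fl libraries, and Bak1 over Bcl2l1 was 3.80, 3.59 and 3.47 against 6.34, 6.10 and 5.63. The ratio of Pmaip1 to Bcl2l1 was the exception among those over Bcl2l1, with 0.773, 0.718 and 0.606 in GIT1 CKO libraries and 1.36, 0.529 and 0.779 in GIT1 fl/fl libraries.

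Over the abundant guardians the picture was less regular. Bax over Mcl1 was 0.159, 0.140 and 0.175 in GIT1 CKO libraries, against 0.189, 0.369 and 0.207 in GIT1 fl/fl libraries. Bax over Bcl2a1b was 0.234, 0.202 and 0.241 against 0.198, 0.528 and 0.234, with GIT1 fl/fl replicate 2 far above all others. As log2 differences, Bax over Bcl2l1 was -0.77 in the fit of all libraries, -0.74 with the GC trend removed and -0.80 without GIT1 fl/fl replicate 2. Bax over Bcl2a1b was -0.28, 0.06 and 0.09 in the same fits, so its sign changed between the fits.

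**Figure D5:**
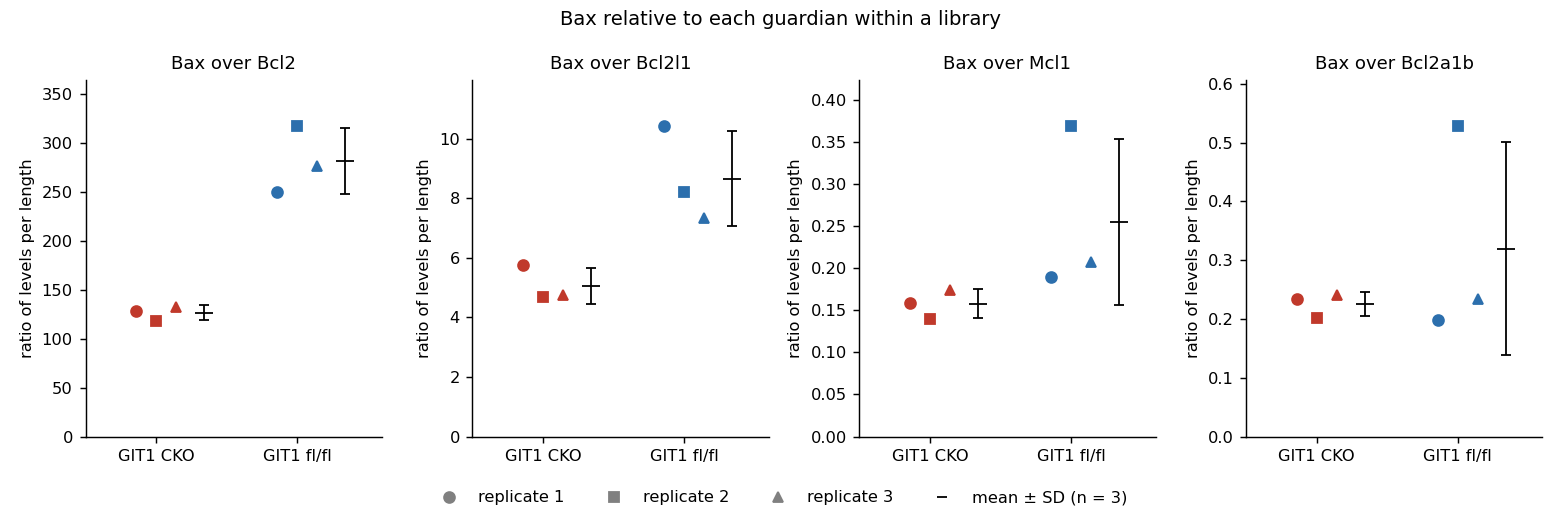
Ratio of Bax to each guardian (vertical axes, levels per length, each from 0) in the 3 GIT1 CKO libraries (red, left) and the 3 GIT1 fl/fl libraries (blue, right), with black bars for the mean ± SD. Over Bcl2 the GIT1 CKO libraries lie at 117.8 to 132.8 and the GIT1 fl/fl libraries at 250.2 to 317.3, while over Bcl2a1b the groups overlap.

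Genes that act beside or below the family were taken from 9 lists with 93 genes, of which 86 were tested. Of all 16287 genes tested, 123 (0.755%) were called, 79 higher and 44 lower. Of the 86 genes of the lists, 1 was called, as a higher value. That gene was Cycs, which encodes the cytochrome c that the effectors release. It had 33.4, 35.4 and 39.8 CPM in GIT1 CKO libraries, against 22.5, 20.4 and 20.7 CPM in GIT1 fl/fl libraries. The groups were far apart, with a log2 fold change of 0.77 (SE 0.11, edgeR adjusted p = 0.0431). With the GC trend removed the log2 fold change was 0.25 and the call was lost (edgeR adjusted p = 0.540). It was also lost when GIT1 CKO replicate 1, 2 or 3 or GIT1 fl/fl replicate 3 was left out (edgeR adjusted p = 0.188, 0.274, 0.0967 and 0.213), at log2 fold changes of 0.69 to 0.83 over all libraries left out. Cytochrome c is known for its many processed pseudogenes, with which its reads may be shared.

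The other 9 genes of the list of the apoptosome and caspases were not called, and 8 of them had a negative log2 fold change. The list's median was -0.21. In 5 of them, Apaf1, Dffa and Dffb included, every GIT1 CKO library was below every GIT1 fl/fl library. Apaf1, the scaffold that cytochrome c assembles into the apoptosome, had 72.1, 68.6 and 71.9 CPM in GIT1 CKO libraries, against 86.8, 73.7 and 78.2 CPM in GIT1 fl/fl libraries (log2 fold change -0.17, SE 0.10, edgeR adjusted p = 0.409). Dffa, the inhibitor of the nuclease that cuts DNA in dying cells, had 26.8, 26.3 and 26.0 CPM against 30.7, 34.3 and 33.5 CPM (log2 fold change -0.31, SE 0.09, edgeR adjusted p = 0.189). Dffb, the nuclease itself, had 4.97, 4.72 and 4.12 CPM against 6.15, 6.69 and 6.67 CPM (log2 fold change -0.50, SE 0.14, edgeR adjusted p = 0.177). These 3 genes were named after their values were seen, and 15.1% of all genes tested lay lower in every GIT1 CKO library.

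Of 16 further relatives of the family, 11 were tested and 0 were called. At an unadjusted p under 0.05, Bcl2a1d was higher in edgeR and Bmf lower, and DESeq2 called 0. Bmf, a BH3-only gene whose product is tied to the cytoskeleton, had 66.6, 69.4 and 65.9 CPM in GIT1 CKO libraries, against 79.6, 83.4 and 82.1 CPM in GIT1 fl/fl libraries. Its groups did not overlap, and its log2 fold change was -0.28 (SE 0.09, edgeR adjusted p = 0.192). Bnip3l, which marks mitochondria for removal, had 150.6, 150.1 and 165.7 CPM against 142.1, 130.4 and 137.2 CPM (log2 fold change 0.19, SE 0.09, edgeR adjusted p = 0.330). Bik had 0 to 12 counts per library and Hrk and Bcl2l10 had 0 in all.

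The remaining lists held no called gene. Of the 8 genes for proteins in or released from the outer mitochondrial membrane, 0 passed even at an unadjusted p under 0.05 in edgeR, and DESeq2 called 0. Vdac2, a channel that holds Bak1, had 145.6 ± 1.34 CPM in GIT1 CKO cells and 145.0 ± 6.52 CPM in GIT1 fl/fl cells, and Vdac1 had 84.7 ± 2.47 against 96.4 ± 8.32 CPM (SD, n = 3 each). Of the 9 inhibitors of apoptosis, 8 had a positive log2 fold change, as 50.9% of all genes tested did, and the median of the list was 0.19. In 7 of these 8 the lowest library was GIT1 fl/fl replicate 2, whose part in the result was not tested. At an unadjusted p under 0.05, 1 was higher and 1 lower in edgeR, with 0 called by DESeq2. The most abundant genes of this list were Birc6 with 228.5 ± 3.79 CPM against 210.7 ± 38.8, and Birc3 with 152.8 ± 5.15 CPM against 146.2 ± 7.99 (SD, n = 3 each). The differences for these 4 genes were not called.

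Among p53 and its targets 19 of 20 genes were tested, with 1 higher and 2 lower at an unadjusted p under 0.05 in edgeR and 1 called higher by DESeq2. That gene was Plk2, a stress-induced kinase named here after its values were seen, with 140.6, 145.8 and 142.0 CPM in GIT1 CKO libraries, against 104.7, 81.9 and 99.2 CPM in GIT1 fl/fl libraries. It had a log2 fold change of 0.58 (SE 0.11, edgeR adjusted p = 0.0928), an adjusted p of 0.00514 in DESeq2 and an adjusted p of 0.0103 in edgeR with the GC trend removed. In that last fit 2 genes of the list were called lower, Zmat3 (log2 fold change -0.41, edgeR adjusted p = 0.0284) and the death receptor gene Fas (log2 fold change -0.48, edgeR adjusted p = 0.0459). Sesn1, a stress sensor, had 464.2 ± 18.6 CPM in GIT1 CKO cells and 498.8 ± 80.5 CPM in GIT1 fl/fl cells, and Cdkn1a, the cell cycle brake p21, had 268.0 ± 11.3 against 276.3 ± 12.8 CPM (SD, n = 3 each). Of 7 tested transcription factors that drive BH3-only genes, 0 were higher and 1 lower at an unadjusted p under 0.05 in edgeR, and DESeq2 called 0. That gene was Foxo3, an activator of Bcl2l11 and Bbc3, with 251.8, 256.8 and 246.2 CPM in GIT1 CKO libraries, against 289.5, 332.1 and 317.3 CPM in GIT1 fl/fl libraries. Its groups did not overlap, and the log2 fold change was -0.32 (SE 0.09, edgeR adjusted p = 0.171). Atf4, of the stress response to unfolded proteins, had 99.6 ± 8.40 against 95.9 ± 4.97 CPM (SD, n = 3 each).

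Of 10 genes of death receptor signalling and necroptosis, 11 NF-κB survival genes and 7 genes of MCL1 turnover, each list had 0 higher and 1 lower at an unadjusted p under 0.05 in edgeR, and DESeq2 called 0. Ripk1, the kinase at the branch of survival and necroptosis, had 172.7 ± 16.4 CPM in GIT1 CKO cells and 183.9 ± 39.8 CPM in GIT1 fl/fl cells (SD, n = 3 each), and the TNF receptor gene Tnfrsf1a had 153.9 ± 5.30 against 164.5 ± 26.0 CPM. Nfkb1, the p50 subunit of NF-κB, had 169.2 ± 4.18 CPM against 182.9 ± 15.9 in GIT1 fl/fl cells. The difference was within the spread of the GIT1 fl/fl libraries for all 3 genes. Huwe1, a ubiquitin ligase of MCL1, had 341.2 ± 9.24 CPM against 324.0 ± 40.8 CPM (SD, n = 3 each; log2 fold change 0.07, edgeR adjusted p = 0.738). Ddb1, an adaptor of ubiquitin ligases, was lower in each GIT1 CKO library, with 237.8, 239.0 and 234.0 CPM against 264.3, 280.2 and 281.1 CPM in GIT1 fl/fl libraries (log2 fold change -0.22, SE 0.08, edgeR adjusted p = 0.240).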

How the data were processed

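The mRNA of LPS-treated BMDMs was sequenced in 3 libraries per group. According to the submitters' processing notes, the authors used fastp 0.17.1, HISAT2 2.1.0 and DESeq2 1.18.1 in R 3.4.3. Neither a counting tool nor a build is given in the sources used here. The deposited whole-number counts per gene were analysed. The 6 columns of normalized counts and the authors' fold changes and p-values were not used.

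Counts were compared in R 4.3.3 with edgeR 4.0.16 (filterByExpr with a minimum count of 10, TMM scaling, robust quasi-likelihood F-test, no other term), with Benjamini-Hochberg adjustment over 16287 genes and a call at an adjusted p under 0.05. The fit recovered known fold changes in simulated data. The simulated libraries held no GC trend, so this does not check the fit for a library such as GIT1 fl/fl replicate 2. The methods describe the libraries as biological replicates, and the labels do not tie them to single mice. CPM are scaled by TMM except in the marker and sex checks. Exonic lengths and sequences were those of GENCODE M21 (GRCm38), in which 52403 gene IDs were found and 95.2% of these had the same coordinates. The floor of 3 counts covers counting error only.

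The genes and lists were chosen with earlier results of these data known. All 10 genes are named, and of each list all called genes where there were at most 5, otherwise the 4 with the smallest p, or the 2 most abundant where none was called. Some genes of the lists are not reported here. Alternatives were DESeq2 1.42.0, limma-voom 3.58.1, 3 other scalings, 2 other filters, thinned counts, a GC correction (lowess, span 0.3), the replicate number as a block, summed Bcl2a1 genes, and each library left out.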

Additional observations from a re-analysis of the deposited data

How the results depend on the processing

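Of the values of the 10 genes under alternatives, 170 kept their direction and side of the threshold, 4 passed the threshold that they had missed and 6 changed sign. Those with a changed sign were Bcl2a1b with the GC trend removed (-0.1125), also with the replicate number as a block (-0.0893), and without GIT1 fl/fl replicate 2 (-0.18), Pmaip1 with the GC trend removed (-0.0792) and also with the block (-0.0746), and Bid without GIT1 CKO replicate 3 (0.10). None of these was called. With a library left out, Bcl2a1b ran from -0.18 to 0.41 and Bid from -0.33 to 0.10. The number of the 10 genes called was 0, and 1 with DESeq2, 1 with the GC trend removed, 1 by the 1.5-fold rule and 0 to 2 with a library left out. The number of pathway genes called was 1, and 2 with DESeq2, 4 with the GC trend removed, 3 by the 1.5-fold rule and 0 to 4 with a library left out. The number of the 10 genes without overlap was 2, and 3 with upper-quartile scaling, total counts, no filter or thinned counts. It was 4 with the GC trend removed, with or without the block, and 2 to 6 with a library left out. The shares of all genes without overlap under these alternatives were not computed, and fewer libraries make overlap rarer for any gene. The share of Mcl1 among the guardians of the 10 genes was 57.8% in GIT1 CKO BMDMs. It was 55.8% with the Bcl2a1 genes summed and 57.4% to 58.3% with a library left out. Over all genes tested, 123 were called, against 912 with DESeq2, 808 with the GC trend removed, 1404 by the 1.5-fold rule and 1 to 1159 with a library left out. The cause of these changes was not tested.

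The replicate numbers are shared by the groups, but the labels do not say that they pair the libraries. Same-numbered libraries had correlations of -0.05, 0.04 and 0.01 and did not always correlate best with each other. This check cannot decide whether the libraries were paired, because GIT1 fl/fl replicate 2 differed from its group along GC content. With the replicate number as a block, 0 pathway genes and 1 of all genes were called, and with the GC trend removed as well, 0 and 47. In that last fit 0 of the 10 genes were called, and Bcl2l1, called with the GC trend removed alone, had a log2 fold change of 0.68 and an adjusted p of 0.116. Cycs had a log2 fold change of 0.77 and an adjusted p of 0.261 with the block. Depth limits Bcl2 most, which had 81 to 448 counts per library.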

Other observations

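Some genes of cell death stood apart in a single library, in either group. The limit was chosen after the values were seen, as a mean of at least 10 CPM and a lowest library more than 0.5 below all others on the log2 scale. Of all 8620 genes with such a mean, 1350 (15.7%) were past this limit. The share among the genes of cell death was not computed, so the genes below are single cases and not a trait of these lists. Casp9, the caspase that the apoptosome activates, had 48.3, 48.1 and 13.0 CPM in GIT1 CKO libraries, against 52.4, 59.6 and 59.6 CPM in GIT1 fl/fl libraries. Casp2 had 49.7, 48.4 and 20.0 CPM against 59.0, 42.2 and 54.6 CPM. Both were low in GIT1 CKO replicate 3, as Bid was. This library was below all others by that margin in 18 of 8620 genes (0.209%). Casp9, Casp2 and Bid were picked by the same limit, so this share is no test of them. Casp8, the initiator below death receptors, had 133.0, 125.6 and 121.9 CPM against 148.7, 46.6 and 121.6 CPM, and Usp9x, which stabilizes MCL1, had 269.4, 275.4 and 271.9 CPM against 306.4, 84.2 and 182.9 CPM. These were low in GIT1 fl/fl replicate 2, which was below all others in 1232 of the 8620 genes (14.3%). Mtch2, Trp53inp1, Vdac3 and Ccng1 were also past the limit in GIT1 fl/fl replicate 2, as Bcl2a1b was, Gdf15 was in GIT1 CKO replicate 1 and Tnfaip3 in GIT1 CKO replicate 2. Xiap was past it in GIT1 fl/fl replicate 3, with 98.7, 30.1 and 118.7 CPM against 100.4, 29.9 and 19.1 CPM. Bcl2l2, which encodes the guardian BCL-W, was not past the limit and is given because it was low in GIT1 CKO replicate 3 and in GIT1 fl/fl replicate 2, with 27.3, 25.1 and 5.99 CPM in GIT1 CKO and 27.4, 7.28 and 26.9 CPM in GIT1 fl/fl libraries. Overlapping gene models of these genes were not looked up.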
